A study of Mus musculus with 8 samples.

Results

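The genes described here are 10 mouse immediate early genes, taken by their platform gene symbols from all 25150 features tested on 8 arrays. They are the Fos family members Fos, Fosb, Fosl1 and Fosl2, the Jun family members Jun, Junb and Jund, the zinc-finger factor gene Egr1, the ATF family member Atf3 and the early response gene Ier3. The arrays carried 11 probes for them, 2 of which were for Junb, and all 11 passed the filter on dim probes. Proteins of the Fos and Jun families pair through their leucine zippers into the transcription factor AP-1, which binds the TRE, a short promoter element also written as the AP-1 site. Fos proteins need a Jun partner to bind DNA, whereas Jun proteins can also pair with each other or with ATF proteins, and Jun with ATF partners prefers the CRE and related octamers. Immediate early genes are induced within minutes of a stimulus without new protein synthesis, mostly through serum response factor, CREB and MAP kinases. In embryonic stem (ES) cells such genes are best known as readouts of ERK signalling, adhesion and stress.

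RNA came from clonal mouse ES cell lines made from IB10, a subclone of E14, by transduction with a pLKO-puro lentivirus that expresses a short hairpin RNA, followed by puromycin selection and colony picking. The cells were kept in serum medium with LIF on gelatin. Taf5-kd denotes the 2 lines with a hairpin against Taf5, a subunit of the general transcription factor TFIID, and Ctrl-kd the 2 lines with a control hairpin that had passed through the same virus and selection. The parental pool is RNA of the untransduced ES cells, which served as the common reference on every array. Each line is 1 clone, grown in duplicate, and the 2 cultures of a line were hybridised with the dyes exchanged, so a group has 2 lines and 4 arrays. All values are log2 ratios of a line to the parental pool with the dye effect removed, and a difference between groups is Taf5-kd minus Ctrl-kd on that scale. The groups were compared by limma's moderated test over 1 value per line, two-sided, and a feature was called at a Benjamini-Hochberg adjusted p under 0.05 over all 25150 features. Where a second fit on single arrays, with the line as a random block and the array number as a replicate block, gave another call, its adjusted p is added. That fit takes 1 correlation (0.441) between the arrays of a line for all genes. For a gene whose lines differ more than that, it counts the arrays of a clone partly as replicates. Its p can then be too small. The arrays measure RNA of whole cultures, in which fewer cells of a type and less RNA per cell cannot be told apart.

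The targeted gene was low in both Taf5-kd lines. The brightest Taf5 probe averaged -1.10 ± 0.04 in Taf5-kd and 0.31 ± 0.20 in Ctrl-kd (SD, n = 4 arrays each), a difference of -1.40, and its other probes gave -1.48 and -1.51. The median signal of the sample channel was 123 to 186 intensity units per array over a background of 35 to 39.5. Duplicate arrays of 1 line had correlations of 0.946 to 0.970 over all features. All 8 ES cell markers stood above background on every array, with a median difference of -0.54 between the groups. Esrrb, an ES cell nuclear receptor, was lower in Taf5-kd, at -1.56 ± 0.16 (SE, adjusted p 0.0292, and -0.79 as the mean of both its probes) and was the only ES marker called over line values. Nearly all of that mean came from the brighter Esrrb probe. The fit on single arrays called 6 of the 8 ES markers lower, Esrrb, Dppa5a at -1.64 (adjusted p 0.00217), Nanog at -0.67 (0.0100), Utf1 at -0.54 (0.0200), Pou5f1 at -0.53 (0.0353) and Sox2 at -0.36 (0.00662). Against the parental pool, the median of the 8 ES markers was -0.10 in Taf5-kd and 0.53 in Ctrl-kd. Esrrb averaged -0.24 in Taf5-kd and 1.32 in Ctrl-kd, Dppa5a -0.93 and 0.70, and Nanog 0.17 and 0.84. Utf1 averaged -0.26 and 0.28, Pou5f1 0.04 and 0.58, and Sox2 0.03 and 0.39. Of the markers of other cell types, 2 of 5 for trophoblast (Cdx2 by 2.61, and Gata3 by 0.32 with an adjusted p of 0.0352, or 0.0605 in the fit on single arrays) and 1 of 4 for neural cells (Nes by 1.26) were higher, and 0 of 10 for fibroblasts, 0 of 6 for primitive endoderm and 0 of 5 for mesoderm were called in either direction. The fit on single arrays called the fibroblast markers Col1a1, at 1.74 (adjusted p 0.0143), and Pdgfrb, at 0.27 (0.0406), and the mesoderm marker T, at 3.18 (0.0192), higher. T was at 2.49 in Taf5-kd line 1 but at -0.45, below the pool, in Taf5-kd line 2. Col1a1 lay below the pool in both groups, at -1.36 in Taf5-kd and -3.09 in Ctrl-kd. Over all features, 4.5% were called higher and 3.25% lower over line values, and 12.4% and 10.2% in the fit on single arrays. The part of these marker differences in the results below was not tested.

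The promoters of Jun and Jund, which were higher in Taf5-kd, and of Fos and Atf3, which differed between the Taf5-kd lines, are shown first. They are the 250 bases before the annotated start in RefSeq (GRCm38.p6), read on the gene's strand, at chr4:95052223-95052472 for Jun, chr8:70697489-70697738 for Jund, chr12:85473640-85473889 for Fos and chr1:191183334-191183583 for Atf3. Jun and Atf3 lie on the minus strand and Jund and Fos on the plus strand. Capitals mark the CRE-related octamer TGACATCA or TGACG, the first bases of the CRE, on either strand.
Jun: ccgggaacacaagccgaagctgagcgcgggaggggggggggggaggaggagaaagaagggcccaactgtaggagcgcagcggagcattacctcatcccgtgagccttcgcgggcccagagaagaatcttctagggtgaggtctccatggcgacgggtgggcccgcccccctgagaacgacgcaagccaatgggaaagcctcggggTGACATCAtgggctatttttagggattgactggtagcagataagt
Jund: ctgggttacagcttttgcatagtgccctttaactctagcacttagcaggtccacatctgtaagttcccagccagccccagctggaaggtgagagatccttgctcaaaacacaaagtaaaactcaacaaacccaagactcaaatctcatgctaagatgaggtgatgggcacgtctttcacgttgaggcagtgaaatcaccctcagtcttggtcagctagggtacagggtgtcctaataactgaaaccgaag
Fos: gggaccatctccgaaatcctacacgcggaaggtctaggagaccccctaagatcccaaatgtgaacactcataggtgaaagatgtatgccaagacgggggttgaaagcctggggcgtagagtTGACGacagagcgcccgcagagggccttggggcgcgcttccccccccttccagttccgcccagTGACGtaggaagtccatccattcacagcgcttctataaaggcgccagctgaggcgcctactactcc
Atf3: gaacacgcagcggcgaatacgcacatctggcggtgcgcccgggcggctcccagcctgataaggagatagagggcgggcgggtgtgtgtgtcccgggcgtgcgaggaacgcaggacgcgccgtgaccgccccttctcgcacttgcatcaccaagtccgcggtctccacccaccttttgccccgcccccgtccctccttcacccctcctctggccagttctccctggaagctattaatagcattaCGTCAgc

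A window was used for 8 of the 10 genes, and none for Fosl1 and Egr1. The Fosb window reaches 73 bases into the annotated gene and is counted but not shown. The full CRE (TGACGTCA) and the TRE (TGANTCA) were found in 0 of the 8, against 1.55% and 6.75% of all 32851 promoter windows of this length. The CArG box, at which serum response factor binds, and the ETS core (CCGGAA) were also in 0 of 8, against 1.47% and 12.0% of all windows. With shares this low, 0 of 8 windows cannot tell the members from other genes for the CRE, TRE, CArG box or ETS core. Bases further upstream were not searched, so any member, Fos included, may hold these motifs outside its window. TGACATCA lay 45 to 38 bases before the start of Jun and in no other member, against 2.93% of all windows. TGACG was found in 4 of 8 windows, those of Fos, Fosb, Junb and Atf3, against 17.8% of all. In Fos it lay 129 and 66 bases before the start, and in Atf3 on the opposite strand, 7 bases before it. The GC box (GGGCGG) was in 6 of 8 windows against 32.7% of all, the CCAAT box (CCAAT) in 3 of 8 against 33.8%, the EGR motif (GCGNGGGCG) in 2 of 8 against 4.7%, and the TATA box (TATAA) in 2 of 8 against 22.8%. The EGR motifs of Fosb and Fosl2 overlap a GC box, and every full CRE also holds TGACG. Without Fosb the GC box was in 5 of 7 windows, TGACG in 3 and the EGR motif in 1. The Jund window held none of these 10 motifs. Both strands were searched. The octamer, TGACG and the TATA box were added to the search after the windows had been seen. These matches describe letters in a window and are not binding sites measured here.

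Taf5-kd and Ctrl-kd had both passed through transduction and cloning. Each hairpin is in its own 2 clones, so an effect of Taf5 depletion cannot be told apart from differences between clones. Between the groups, Jun, Jund and Fosb were higher in Taf5-kd. These are 3 of the 10 members, with 0 lower, where 4.5% of all features were called higher and 3.25% lower. Jun had the largest difference of the 10, 1.23, and Fos the next, 1.15, though Fos did not pass the test. The differences were positive for 8 and negative for 2 members, with a median of 0.27 against -0.0063 over all features. The arrays of the groups did not overlap for 7 members, all with Taf5-kd above, where 18.1% of all features did so. The fit on single arrays called 6 members higher and 0 lower, where 12.4% and 10.2% of all features were called. Of the features called between the groups 58.1% were higher in Taf5-kd, against 48.1% with each array centred on its median and 46.2% with chromosome medians subtracted.

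**Figure D1:**
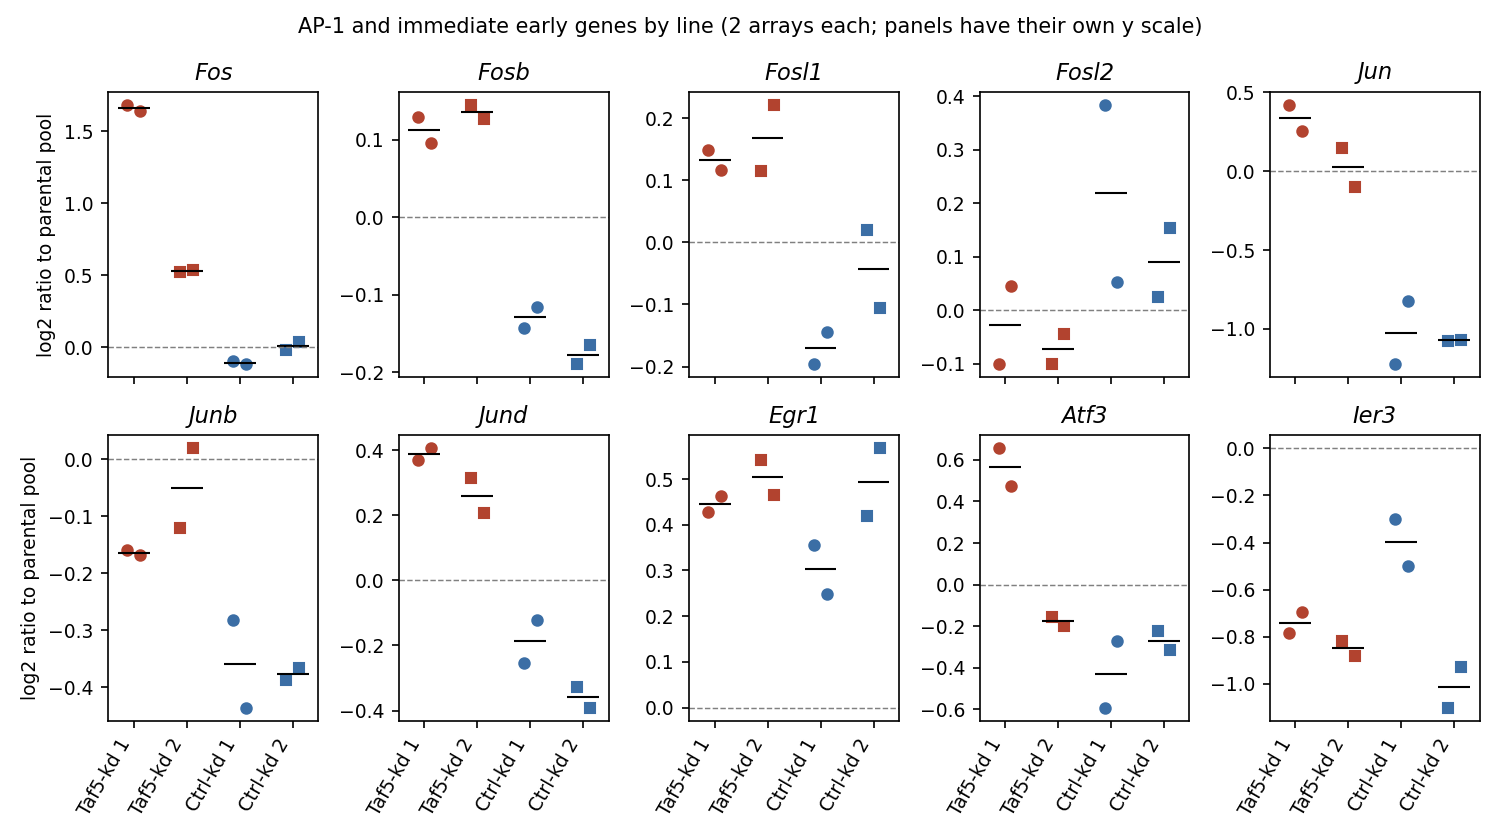
Log2 ratio to the parental pool (y axis, own scale in each panel) for the 10 genes in the 4 lines (x axis), Taf5-kd in red and Ctrl-kd in blue. Points are arrays with the dye effect removed, bars are line means and the dashed line is the level of the parental pool. The Jun arrays of Taf5-kd lie between -0.10 and 0.42 and those of Ctrl-kd between -1.22 and -0.82, and the Fos lines of Taf5-kd lie apart at 1.66 and 0.53.

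Among the Jun family, Jun itself, the most potent activator of the family, differed most. Its log2 ratios were 0.42, 0.25, 0.15 and -0.10 on the Taf5-kd arrays, against -1.22, -0.82, -1.08 and -1.07 on the Ctrl-kd arrays. All Taf5-kd arrays lay above all Ctrl-kd arrays, and the Taf5-kd arrays were close to the parental pool while the Ctrl-kd arrays were well below it. Jun was higher by 1.23 ± 0.12 (SE, 2.34-fold, adjusted p 0.0281). The Jun probe was dim in Ctrl-kd, at 74.4 to 92.9 intensity units over a background of 34 to 38, against 198 to 387 units in Taf5-kd. Its difference was 1.76 without the offset of 50, 1.65 without background subtraction and 1.64 from the authors' processed values. The authors' deposited table gave Jun a log2 difference of 1.62 with a p of 0.

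Jund, the family member that is expressed in most resting cells, had log2 ratios of 0.37, 0.41, 0.31 and 0.21 in Taf5-kd, against -0.25, -0.12, -0.33 and -0.39 in Ctrl-kd. The groups did not overlap, and they lay on opposite sides of the parental pool. Jund was higher in Taf5-kd by 0.60 ± 0.09 (SE, 1.51-fold, adjusted p 0.0423), and the authors' deposited table gave it 0.60 with a p of 0. Junb, which can act against Jun on some promoters, had log2 ratios of -0.16, -0.17, -0.12 and 0.02 in Taf5-kd, against -0.28, -0.44, -0.39 and -0.37 in Ctrl-kd. Its groups did not overlap either, but the difference of 0.26 ± 0.06 (SE) did not pass the test (adjusted p 0.0788), while it passed in the fit on single arrays (adjusted p 0.0425). The dimmer Junb probe gave a difference of 0.31. The authors' deposited table gave the Junb probes differences of 0.25 and 0.32 with a p of 1 and 0.9968.

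Jund and Junb both lie on chromosome 8, whose genes were shifted as a whole. The median log2 ratio of its 565 brighter genes was 0.14 in both Taf5-kd lines, against -0.14 and -0.13 in the Ctrl-kd lines. The median difference of these genes between the groups was 0.33, and 198 of 892 features of chromosome 8 were called higher (22.2%) and 11 lower. With the chromosome medians subtracted, Jund kept a difference of 0.33 that did not pass the test (adjusted p 0.105), and Junb had -0.01 (adjusted p 0.928). Against the parental pool the same step gave Jund 0.19 in Taf5-kd (adjusted p 0.119) and -0.14 in Ctrl-kd (adjusted p 0.193), and Junb -0.25 in Taf5-kd (adjusted p 0.0307) and -0.23 in Ctrl-kd (adjusted p 0.0294). A change in the number of copies of chromosome 8 in the lines was not tested, since no DNA was measured. Jun, Fos and Fosb lie on chromosomes 4, 12 and 7.

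**Figure D2:**
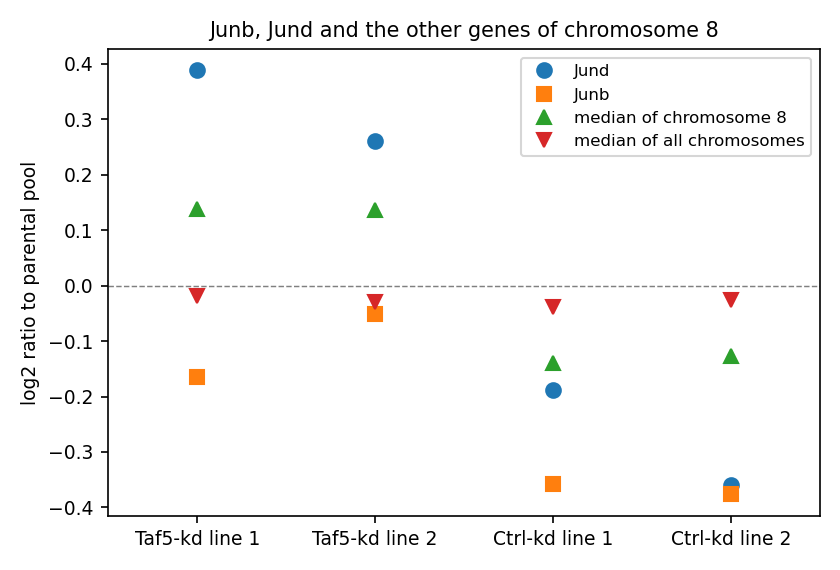
Line means of the log2 ratio to the parental pool (y axis) for Jund, Junb, the median of the brighter genes of chromosome 8 and the median over all chromosomes, in the 4 lines (x axis). The chromosome 8 median is 0.14 in both Taf5-kd lines and -0.14 and -0.13 in the Ctrl-kd lines, while Jund stands further from 0 than that median in every line.

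In the Fos family, Fos showed a large difference that was carried unequally by the Taf5-kd lines. Its log2 ratios were 1.68 and 1.64 on the arrays of Taf5-kd line 1 and 0.53 and 0.53 on those of Taf5-kd line 2, against -0.10, -0.12, -0.02 and 0.03 in Ctrl-kd. Every Taf5-kd array lay above every Ctrl-kd array, and the Ctrl-kd arrays were at the level of the parental pool. The difference of 1.15 ± 0.41 (SE, 2.21-fold) did not pass the test (adjusted p 0.190). It passed in the fit on single arrays (SE 0.29, adjusted p 0.0242), which counts the near-equal arrays of each line partly as replicates. The Taf5-kd lines themselves differed by 1.13 ± 0.05 (SE, line 1 minus line 2, adjusted p 6.01e-06), and the Ctrl-kd lines by -0.11 ± 0.05 (adjusted p 0.158). The authors' deposited table, which also compares single lines, gave Taf5-kd line 1 a Fos difference of 1.86 and 1.72 against the Ctrl-kd lines and Taf5-kd line 2 one of 0.68 and 0.54, with p-values of 0 to 0.0048. For the groups it gave Fos 1.20 with a p of 0.2136.

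Fosb, a close relative of Fos, differed by less but more evenly. It had log2 ratios of 0.13, 0.10, 0.14 and 0.13 in Taf5-kd, against -0.14, -0.12, -0.19 and -0.16 in Ctrl-kd. The groups did not overlap, and the arrays within a group lay close together. Fosb was higher in Taf5-kd by 0.28 ± 0.04 (SE, 1.21-fold, adjusted p 0.0449). The authors' deposited table gave Fosb 0.28 with a p of 0.713.

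Fosl1 and Fosl2 encode the Fos-related proteins FRA1 and FRA2, which lack the strong activation domain of Fos. Fosl1 had log2 ratios of 0.15, 0.12, 0.12 and 0.22 in Taf5-kd, against -0.20, -0.14, 0.02 and -0.11 in Ctrl-kd. The groups did not overlap, but its probe was above background in the sample channel on all 4 Taf5-kd arrays and on 2 of 4 Ctrl-kd arrays. The difference of 0.26 ± 0.06 (SE) had an adjusted p of 0.0925, and of 0.0334 in the fit on single arrays. Fosl2 had log2 ratios of -0.10, 0.04, -0.10 and -0.04 in Taf5-kd, against 0.38, 0.05, 0.03 and 0.15 in Ctrl-kd. Its groups overlapped, and the difference of -0.20 ± 0.06 (SE, adjusted p 0.143) was the only negative one in the Fos and Jun families.

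Outside the Fos and Jun families no member was called between the groups. Atf3, a stress-induced partner of Jun that often represses its targets, had log2 ratios of 0.66 and 0.47 in Taf5-kd line 1 and -0.15 and -0.20 in Taf5-kd line 2, against -0.59, -0.27, -0.22 and -0.31 in Ctrl-kd. Line 1 stood apart from all other lines, and line 2 lay just above the highest Ctrl-kd array. The group difference was 0.54 ± 0.28 (SE, adjusted p 0.322), and Taf5-kd line 1 exceeded line 2 by 0.74 ± 0.10 (SE, adjusted p 0.00219). Fos and Atf3 were the only members called between the Taf5-kd lines, 2 of 10, both higher in line 1, where 9.49% of all features were called higher and 4.06% lower. The Atf3 call between the lines was lost with median centring (adjusted p 0.137) and without the normexp offset (adjusted p 0.0507).

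Egr1, which encodes a zinc-finger factor induced through serum response factor, had log2 ratios of 0.43, 0.46, 0.54 and 0.47 in Taf5-kd, against 0.36, 0.25, 0.42 and 0.57 in Ctrl-kd. The groups overlapped, all 8 arrays lay above the parental pool, and the difference was 0.08 ± 0.08 (SE, adjusted p 0.639). Ier3, a stress-response gene that bears on cell survival, had log2 ratios of -0.78, -0.70, -0.82 and -0.88 in Taf5-kd, against -0.30, -0.50, -1.10 and -0.93 in Ctrl-kd. All 8 arrays lay below the parental pool, and the Taf5-kd arrays fell inside the range of the Ctrl-kd arrays, with a group difference of -0.09 ± 0.23 (SE, adjusted p 0.860). The Ctrl-kd lines differed from each other by 0.62 ± 0.08 (SE, line 1 minus line 2, adjusted p 0.00166). Ier3 was the only member called between the Ctrl-kd lines, 1 of 10, where 6.66% of all features were called higher and 6.76% lower in line 1. That call was lost with median centring, which gave 0.22 (adjusted p 0.383), and without the replicate block (adjusted p 0.0635).

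**Figure D3:**
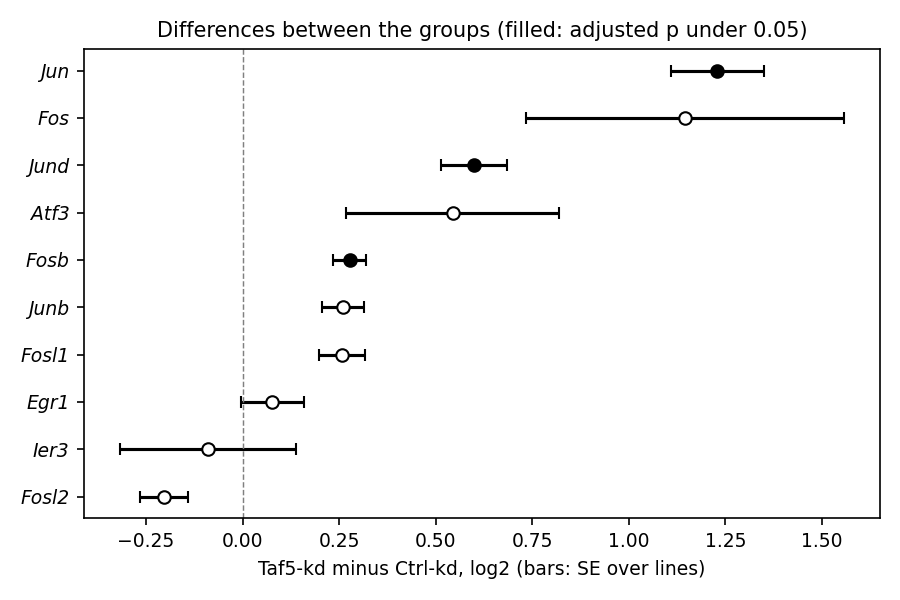
Difference between Taf5-kd and Ctrl-kd (x axis, log2) for each of the 10 genes (y axis), with the SE over lines as bars and filled points for an adjusted p under 0.05. Jun, Jund and Fosb are filled, at 1.23, 0.60 and 0.28, and Fos at 1.15 has the widest bar, 0.41.

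Without Ctrl-kd array 1 the adjusted p was 0.0541 for Jun, 0.0808 for Jund and 0.0601 for Fosb, and centring each array on its median in place of loess gave 0.0516, 0.256 and 0.999, so that 0 of the 10 members were called under either setting. The Jund call was also lost without Taf5-kd array 3 (0.0641), the Fosb call without Taf5-kd array 1 or 3 or Ctrl-kd array 4 (0.0551 to 0.0581), without background subtraction (0.0532) or without the normexp offset (0.0814). With any single line left out only Jun stayed called, and that only without Taf5-kd line 2.

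Set against the parental pool, which asks how far each group lay from the untransduced cells, the members differed in which group stood away from it. The pool is 1 reference RNA, so these tests leave out its own spread, and they use the same arrays as the comparison between the groups. In Taf5-kd, 2 of 10 members were higher and 1 lower than the pool, where 7.74% of all features were called higher and 10.7% lower. In Ctrl-kd, 1 was higher and 3 were lower, where 8.38% and 13% of features were called. In the fit on single arrays 4 were higher and 1 lower in Taf5-kd, where 14% and 17.2% of features were called, and 1 was higher and 5 lower in Ctrl-kd, where 14% and 18.8% were. The member median was 0.17 in Taf5-kd and -0.21 in Ctrl-kd.

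For Jun the distance from the pool lay in the Ctrl-kd lines. It averaged 0.18 ± 0.22 in Taf5-kd (SD, n = 4 arrays, adjusted p 0.234 against the pool) and -1.05 ± 0.17 in Ctrl-kd (SD, n = 4 arrays, adjusted p 0.0103), which is 2.07-fold below the pool. For Fos it lay in the Taf5-kd lines. Fos averaged 1.09 ± 0.65 in Taf5-kd (adjusted p 0.0814, and 0.00441 in the fit on single arrays) and -0.05 ± 0.07 in Ctrl-kd (adjusted p 0.930). Jund lay on both sides of the pool, at 0.32 ± 0.09 in Taf5-kd (adjusted p 0.0412) and -0.27 ± 0.12 in Ctrl-kd (adjusted p 0.0525, and 0.00806 in the fit on single arrays), and the Taf5-kd call was lost with chromosome medians subtracted (adjusted p 0.119).

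Junb averaged -0.11 ± 0.09 in Taf5-kd (adjusted p 0.152, and 0.0307 with chromosome medians subtracted) and -0.37 ± 0.06 in Ctrl-kd, where it was lower than the pool (adjusted p 0.0144). Fosb averaged 0.12 ± 0.02 in Taf5-kd (adjusted p 0.0663, and 0.0136 in the fit on single arrays) and -0.15 ± 0.03 in Ctrl-kd, where it was lower (adjusted p 0.0401). Egr1 was higher than the pool in both groups, at 0.47 ± 0.05 in Taf5-kd (adjusted p 0.0196) and 0.40 ± 0.13 in Ctrl-kd (adjusted p 0.0226). Of Junb, Fosb and Egr1, only Fosb had group averages on opposite sides of the pool. Against the pool, the authors' deposited table gave Ctrl-kd a p of 0.3868 for the brighter Junb probe, 0.3408 for Egr1 and 0 for Jun. For Fosb in Ctrl-kd it gave -0.12 with a p above 0.05. In Taf5-kd it gave a p of 0.3534 for Jund, 0.0354 for Egr1 and 0.0008 for Ier3.

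Ier3 averaged -0.79 ± 0.08 in Taf5-kd, where it was lower than the pool (adjusted p 0.0480), and -0.71 ± 0.37 in Ctrl-kd (adjusted p 0.0559, and 0.00347 in the fit on single arrays). Atf3, Fosl1 and Fosl2 were called in neither group, with averages of 0.19 ± 0.44, 0.15 ± 0.05 and -0.05 ± 0.07 in Taf5-kd and -0.35 ± 0.17, -0.11 ± 0.09 and 0.15 ± 0.16 in Ctrl-kd. Leaving out either Taf5-kd line ended all calls in Taf5-kd, and leaving out Ctrl-kd line 2 ended all calls in Ctrl-kd. Without Ctrl-kd line 1 or either Taf5-kd line, 2 members were called in Ctrl-kd. Of single arrays, Taf5-kd array 3 or Ctrl-kd array 1 or 3 ended the Jund call in Taf5-kd, Taf5-kd array 1 or Ctrl-kd array 2 or 4 the Ier3 call in Taf5-kd, Taf5-kd array 3 or Ctrl-kd array 1 or 4 the Fosb call in Ctrl-kd, and Ctrl-kd array 1 the Egr1 call in Ctrl-kd (adjusted p 0.0507 to 0.0740). Median centring ended all calls in Taf5-kd (adjusted p 0.0636 to 0.170). In Ctrl-kd it ended those of Egr1, Junb and Fosb (0.105, 0.796 and 0.916). The Fosb call in Ctrl-kd was also lost with the authors' processed values (0.0523) and without the normexp offset (0.0922). The Ier3 call in Taf5-kd was also lost with chromosome medians subtracted (0.0533).

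**Figure D4:**
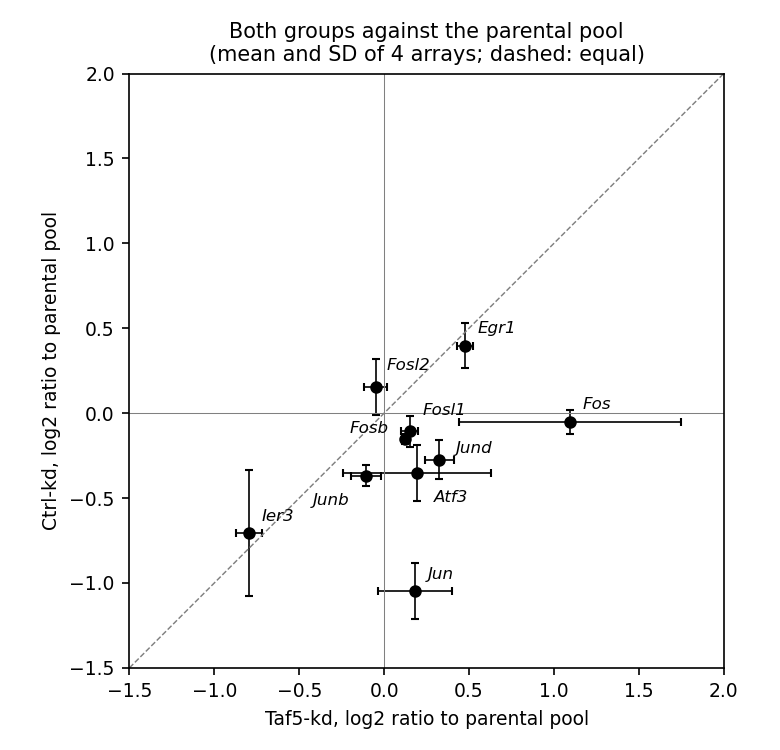
Mean log2 ratio to the parental pool in Taf5-kd (x axis) and Ctrl-kd (y axis), with the SD of 4 arrays as bars and a dashed line where the groups are equal. Egr1 and Ier3 lie near the dashed line away from 0, Jun lies low at -1.05 on the Ctrl-kd axis, and Fos lies far right at 1.09 on the Taf5-kd axis.

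Other immediate early genes were set beside the members. For this list and those below, the shares over all features between the groups were 4.5% called higher and 3.25% lower. In the fit on single arrays they were 12.4% and 10.2%. Of 44 measured, 8 were higher and 1 lower in Taf5-kd (12 and 5 in the fit on single arrays), with a median difference of 0.04. The named members were the matricellular genes Ccn1 and Ccn2, at 1.96 ± 0.23 (SE, adjusted p 0.0341) and 1.70 ± 0.25 (adjusted p 0.0436), the GTPase gene Rhob at 1.40 ± 0.11 (adjusted p 0.0256) and the EGF receptor inhibitor gene Errfi1 at 1.31 ± 0.08 (adjusted p 0.0241). Ccn1 lay below the pool in both groups, at -0.59 ± 0.37 in Taf5-kd and -2.56 ± 0.12 in Ctrl-kd (SD, n = 4 arrays each). Errfi1 was near the pool in Taf5-kd, at -0.01 ± 0.10, and low in Ctrl-kd, at -1.32 ± 0.09. The relatives of Egr1 on this list, Egr2, Egr3 and Egr4, had differences of 0.27, -0.04 and -0.0019 with adjusted p of 0.132, 0.616 and 0.995, and Egr2 was called higher in the fit on single arrays (adjusted p 0.0174). The gene called lower was Arc, a synaptic regulator, at -0.45 (adjusted p 0.0431). Arc and the Egr genes were picked after their values had been seen. Lines of 1 group also differed on this list. Of the 44 genes, 14 were called higher and 11 lower in Taf5-kd line 1 than in line 2. Over all features these shares were 9.49% and 4.06%. Between the Ctrl-kd lines 5 were higher and 16 lower in line 1, against 6.66% and 6.76% of all features. These line tests take the 2 cultures of a clone as replicates, unlike the test between the groups.

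Of 28 measured genes for serum response factor, its ternary complex cofactors and MAP kinases, 2 were higher and 2 lower (7 and 5 in the fit on single arrays), with a median of 0.03. The higher ones were both kinases that activate JNK, which phosphorylates Jun: Map2k4 at 1.06 ± 0.08 (SE, adjusted p 0.0249) and Map2k7 at 0.38 ± 0.05 (adjusted p 0.0407). Map2k7 lies on chromosome 8 and had 0.11 with chromosome medians subtracted (adjusted p 0.258) and 0.13 as the mean of its probes (adjusted p 0.104). Map2k4 lies on chromosome 11, and its difference was 0.50 as the mean of both its probes. All of that mean came from the brighter Map2k4 probe. The lower ones were Nras, at -0.28 ± 0.04 (adjusted p 0.0430), and the kinase gene Rps6ka5, at -0.26 ± 0.04 (adjusted p 0.0477). The mean of all probes gave -0.10 for Nras (adjusted p 0.210) and -0.05 for Rps6ka5 (adjusted p 0.439).

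Of 19 measured leucine-zipper partners of AP-1, 1 was higher and 1 lower (4 and 3 in the fit on single arrays). Nfe2l2, the oxidative stress regulator NRF2, was lower, at -0.86 ± 0.04 (SE, adjusted p 0.0241, and -0.52 as the mean of its probes), and Mafk, a small Maf protein gene, was higher by 0.29 ± 0.04 (adjusted p 0.0379). Of 30 measured genes known as AP-1 targets, 4 were higher and 0 lower (8 and 2 in the fit on single arrays), with a median of -0.02. They were the adhesion receptor gene Cd44 at 1.27 ± 0.16 (SE, adjusted p 0.0358), the matrix protease gene Mmp2 at 1.17 ± 0.13 (adjusted p 0.0313), the intermediate filament gene Vim at 1.02 ± 0.07 (adjusted p 0.0241) and Gclm, for glutathione synthesis, at 0.66 ± 0.05 (adjusted p 0.0252). Mmp2 lies on chromosome 8 and had 0.90 with chromosome medians subtracted (adjusted p 0.0425). Against the pool, Cd44 averaged -0.28 in Taf5-kd and -1.55 in Ctrl-kd, Mmp2 0.13 and -1.04, Vim 0.68 and -0.35, and Gclm 0.43 and -0.22. Of the 30 targets, 2 were called higher and 6 lower than the pool in Taf5-kd, and 1 higher and 10 lower in Ctrl-kd. The shares over all features were 7.74% and 10.7% in Taf5-kd and 8.38% and 13% in Ctrl-kd. The mean of all probes gave 0.59 for Cd44 (adjusted p 0.0335), 0.56 for Vim (adjusted p 0.0241) and 0.04 for Gclm (adjusted p 0.565). Most of the Vim mean came from the brighter of its 2 probes. Of 20 measured genes for repressors and turnover of AP-1 and Egr proteins or their RNA, Atf3 among them, 1 was higher and 0 lower (5 and 3 in the fit on single arrays). It was Zfp36, whose protein speeds decay of short-lived mRNAs, at 0.91 ± 0.05 (SE, adjusted p 0.0241). Apart from Arc, the called genes of these lists that are named here passed in 10 (Rps6ka5) to 19 (Ccn1) of 23 other settings and leave-outs. Arc and the called list genes not named here were not recomputed.

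**Figure D5:**
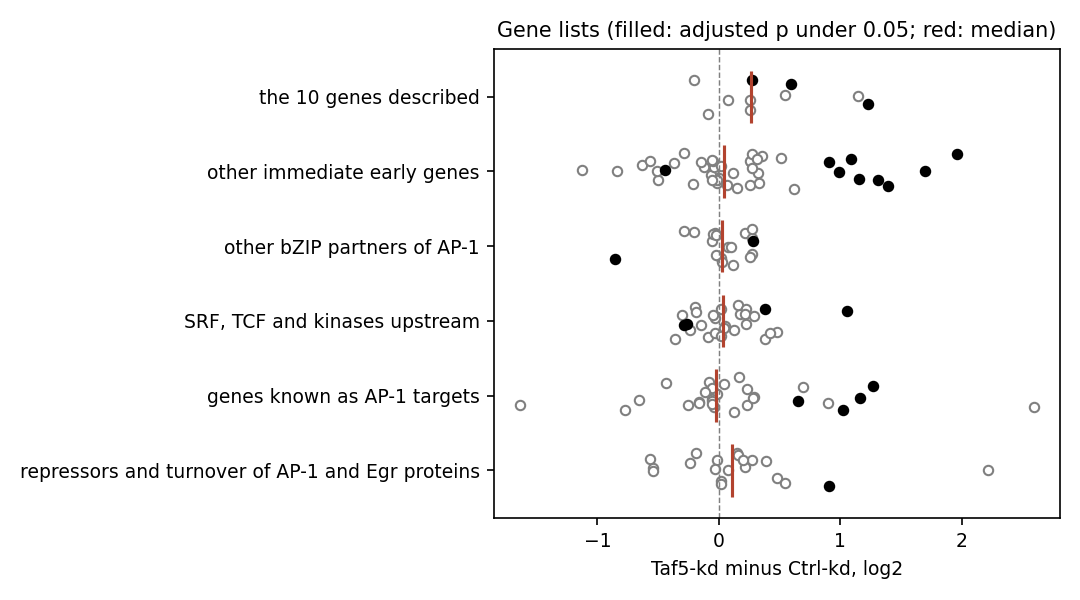
Difference between Taf5-kd and Ctrl-kd (x axis, log2) for the 10 genes and for each list set beside them (y axis). Points are genes, filled where the adjusted p is under 0.05, with a red bar at the list median. The median of the 10 genes is 0.27 and that of the other immediate early genes 0.04, with 8 filled points above 0 and 1 below.

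Among 17394 genes above the filter, those whose values over the 8 arrays of 4 lines most resembled Fos were Rtl8b, Glp1r, Tmem47, Wrn and Pla2g7, with Pearson correlations of 0.995 to 0.998. Most like Jun were Katnal2, Wdr60, Spats2l, Mfsd2a and Prickle1, with 0.997 to 0.998. Over 0.95 stood 506 genes for Fos and 1226 for Jun, which is a description of 4 clones and carries no test. Pla2g7 followed Fos with 0.85 and 0.24 in the Taf5-kd lines and -0.07 and 0.06 in the Ctrl-kd lines, and Mfsd2a followed Jun with 0.35 and 0.11 in the Taf5-kd lines and -1.22 and -1.24 in the Ctrl-kd lines.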

How the data were processed

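The scanner tables hold, per the file headers, mean spot intensity and local background in both channels, deposited without normalization. The processed matrix is log2, line over parental pool, per the labels and values, and the comparison table gives log2 differences and a p-value, per the file headers. How the authors normalized, and the test behind their p-value, is not given in the sources used here.

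Intensities were treated in R 4.3.3 with limma 3.58.1 and statmod 1.5.0: normexp background correction with offset 50, then loess within each array over 41174 mouse probes, then orientation to line over pool by the labelled dyes. Before loess, the ratios had correlations of 0.820 to 0.959 with the authors' values. A probe had to exceed its background by 2 SDs in 1 channel or the other on 4 or more of the 8 arrays, which kept 40860 and set aside 314, and the brightest stood for its gene, giving 25150 features. Platform symbols were used, those of 3726 probes updated through RefSeq (GRCm38.p6). Python 3.11.15 with pandas 2.3.3 and matplotlib 3.10.9 was used for tables and plots.

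Line means were compared by lmFit and eBayes, 2 lines against 2, and single lines by a fit on arrays with a dye term. The fit on single arrays took the line through duplicateCorrelation (consensus 0.441) and the array number, which marks the dye, as a block. Deviations from the line means, taken before the dye effect was removed, correlated at 0.700 to 0.829 between same-numbered arrays. The number and the dye coincide, so a dye effect and any other pairing by number cannot be told apart. Both fits were run on simulated data with known changes, and the check was only that the size of those changes was recovered. No rate of false calls is drawn from it. The number of arrays limits the precision. Alternatives changed 1 choice at a time: the fit, centring, background, the authors' values, the filter, the probes of a gene, chromosome medians, and each array or line left out. The members, the lists and the naming rule were chosen with earlier results of these data known. The rule names up to 4 called genes of a list by size, otherwise up to 2 by p, and the 5 genes most like Fos and Jun.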

Additional observations from a re-analysis of the deposited data

Results flagged for a closer look

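Between clones of the same group, 3 genes differed in a test of the lines themselves (limma on arrays, Benjamini-Hochberg adjusted). Fos was higher in Taf5-kd line 1 than in line 2 by 1.13 (log2), and Atf3 was higher in line 1 by 0.74. Ier3 was higher in Ctrl-kd line 1 than in line 2 by 0.62. No array of any member stood far enough from the other arrays of its group to pass Dixon's test. Where the 2 lines of a group lie apart, as for Fos, that gap widens the range, and the test can hardly flag an array.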

How the results depend on the processing

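Over 11 other settings or fits and 12 leave-outs, all 10 members were recomputed. The features called between Taf5-kd and Ctrl-kd numbered 5673 in the fit on single arrays with the replicate block, 5594 without it, 106 with median centring, and 0 to 2520 over the leave-outs, against 1950 (6712 at an unadjusted p under 0.05). Of the members, 6, 6 and 0 were called in those fits and 0 to 4 over the leave-outs, with 0 without Ctrl-kd array 1 or without any line but Taf5-kd line 2, and 1 without Taf5-kd array 3 or that line; the arm left with 1 line is assumed to vary like the other. Of the called features, 58.1% were higher, against 48.1% with median centring and 46.2% with chromosome medians subtracted. Against the parental pool, Taf5-kd had 5, 5 and 0 members called (0 to 5 over the leave-outs) and Ctrl-kd 2 with median centring (0 to 7). Between the Taf5-kd lines 1 member was called with median centring and 1 with a normexp offset of 0. Between the Ctrl-kd lines 0 were called without the replicate block, 0 with median centring and 1 to 3 over the leave-outs. The blocked fit changed no other member's call than those given with it.

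Signs turned for Junb between the groups with chromosome medians subtracted (-0.0115), and with median centring for Hand2 between the groups (0.0425), for Fosl2 (0.0107) and Junb (0.0356) in Taf5-kd against the pool and for Fosb in Ctrl-kd against the pool (0.0510). Over the leave-outs the group difference ran from -0.0189 to 0.17 for Egr1, -0.40 to 0.22 for Ier3, -1.56 to 0.10 for Sox7 and -1.90 to 0.20 for Pdgfra, Atf3 in Taf5-kd against the pool from -0.18 to 0.57, and Fos in Ctrl-kd against the pool from -0.11 to 0.0063. The causes were not tested. Of 110 values of the members between the groups without leave-outs, 97 kept their direction and side of the threshold. This share overstates stability, since 7 of the 10 members were not called to begin with. Both fits on single arrays and the filter settings leave a member's log2 difference unchanged, so its direction could not turn there. The mean of all probes does the same for members with 1 probe. Dim probes (Jun in Ctrl-kd, Fosl1, Atf3) limit the precision of their ratios. Aquantile leaves ratios unchanged by construction.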
